A study of Homo sapiens with 2 samples.

Results

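The peaks described here lie in microRNA genes, leaving out the miR-200 family, the let-7 family, the miR-17-92 cluster on chromosome 13 and a set of microRNA genes typical of blood, liver or brain. A peak was taken when its midpoint fell in a GENCODE release 44 gene of the type miRNA on the strand of the peak. This gave 414 of 7793 listed peaks (5.31%, 95% Wilson interval 4.84–5.83%), in 136 genes. The left-out microRNA genes held a further 57 peaks in 20 genes.

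PAR-CLIP recovers RNA that ultraviolet light has crosslinked to a protein. SK-OV-3 cells, an established ovarian adenocarcinoma line, stably expressed RRN3 carrying an N-terminal V5 tag from a lentiviral vector with the EF1a promoter, and were labelled for 14 h with 100 μM 4-thiouridine before exposure to 365-nm light at 0.2 J/cm2. RNA was recovered after RNase A treatment from 1 immunoprecipitate with anti-V5 antibody, and 10% of the lysate served as the 1 input library. Each group had 1 library, so no value could be checked against a replicate, and the intervals cover only the counting of peaks, sites, genes or bases.

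A microRNA is cut from a hairpin in the primary transcript by Drosha with DGCR8 and then by Dicer, which leaves a short duplex of the 5p and the 3p arm. Usually a single strand of the duplex is kept in an Argonaute protein, and its seed, the bases near the 5′ end, pairs with target messenger RNAs. RRN3 is best known as the factor that brings RNA polymerase I to ribosomal DNA promoters.

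Mature sequences of the microRNAs with a site of joined peaks were grouped by shared seed, because a shared seed means shared target sites. Sequences are from RefSeq (GRCh38.p14), which held a mature sequence for 135 of the 136 genes, SNORD138 being the exception, and a hairpin under the same symbol for 125. Capitals mark the seed, bases 2 to 8. Among tabulated arms, the seed shared by the most genes was that of the miR-15 and miR-16 family, which represses cell-cycle genes. It had a site in 5 of its 6 genes on the 19 chromosomes with peaks. The seed of the miR-99 and miR-100 family, which targets MTOR, came next with 3 of 3. The seeds were ordered by these counts. The share of genes with a peak, given below, is 9.15% over the set. It is 53.9% for numbers below 200, the class of most of these genes.
miR-15a-5p: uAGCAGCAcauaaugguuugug
miR-15b-5p: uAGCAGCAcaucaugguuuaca
miR-16-5p: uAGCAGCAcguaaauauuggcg
miR-195-5p: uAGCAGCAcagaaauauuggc
miR-497-5p: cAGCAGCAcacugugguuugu
miR-99a-5p: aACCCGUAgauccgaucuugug
miR-99b-5p: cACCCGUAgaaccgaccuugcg
miR-100-5p: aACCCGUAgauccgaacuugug

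By the tabulated arms, the other 8 seeds held by more than 1 gene with a site were each held by 2. They belong to miR-181b and miR-181d, miR-130b and miR-301a, miR-148b and miR-152, miR-125a and miR-125b, miR-326 and miR-330, miR-146a and miR-146b, miR-30a and miR-30e, and miR-33a and miR-33b. The genes of the set with these seeds on the 19 chromosomes numbered 5, 5, 2, 4, 2, 3, 4 and 2 in the same order.
miR-181b-5p: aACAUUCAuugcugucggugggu
miR-181d-5p: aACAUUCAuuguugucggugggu
miR-130b-3p: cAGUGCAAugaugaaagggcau
miR-301a-3p: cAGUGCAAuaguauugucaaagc
miR-148b-3p: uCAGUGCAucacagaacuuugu
miR-152-3p: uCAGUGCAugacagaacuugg
miR-125a-5p: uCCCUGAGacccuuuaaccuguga
miR-125b-5p: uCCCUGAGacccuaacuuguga
miR-326: cCUCUGGGcccuuccuccag
miR-330-5p: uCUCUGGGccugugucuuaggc
miR-146a-5p: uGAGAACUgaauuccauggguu
miR-146b-5p: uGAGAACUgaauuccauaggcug
miR-30a-5p: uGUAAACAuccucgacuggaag
miR-30e-5p: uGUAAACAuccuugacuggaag
miR-33a-5p: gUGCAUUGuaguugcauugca
miR-33b-5p: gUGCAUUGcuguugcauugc

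In all, the sites covered at least 50% of mature sequences with 132 different seeds, of which these 10 were shared. Arms missing from the table are not in these counts. Where a site met no tabulated arm in a gene with 1 tabulated arm, bases 2 to 8 of the site itself were read as the seed. MIR130A then joins MIR130B and MIR301A, MIR10B joins MIR10A and MIR34C joins MIR34A, and 12 of 138 seeds are shared. The seed of MIR130A is then held by as many genes with a site as that of the miR-99 and miR-100 family. The hairpins of genes that the results turn on are given next, and in these lines capitals mark the bases covered by peaks. They were chosen to show both arms covered (MIR140, MIR197, MIR642A, MIR30A, MIR423, MIR301A, MIR125B1), a single arm covered (MIR21, MIR6781), the largest covered part of a hairpin (MIR4637) and a pair of genes with the same mature arm (MIR16-2 and MIR16-1).
MIR140: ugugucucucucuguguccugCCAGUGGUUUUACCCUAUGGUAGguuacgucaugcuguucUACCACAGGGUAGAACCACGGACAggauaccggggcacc
MIR197: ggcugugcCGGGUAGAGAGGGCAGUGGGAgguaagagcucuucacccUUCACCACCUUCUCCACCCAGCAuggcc
MIR642A: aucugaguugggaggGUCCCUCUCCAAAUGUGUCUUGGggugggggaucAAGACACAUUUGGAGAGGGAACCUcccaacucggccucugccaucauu
MIR30A: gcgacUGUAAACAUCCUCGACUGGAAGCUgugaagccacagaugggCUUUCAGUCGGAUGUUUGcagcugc
MIR423: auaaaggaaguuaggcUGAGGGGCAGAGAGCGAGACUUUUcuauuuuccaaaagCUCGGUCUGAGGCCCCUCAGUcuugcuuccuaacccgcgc
MIR301A: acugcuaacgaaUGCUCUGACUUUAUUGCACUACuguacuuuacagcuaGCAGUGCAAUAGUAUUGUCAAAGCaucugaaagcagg
MIR125B1: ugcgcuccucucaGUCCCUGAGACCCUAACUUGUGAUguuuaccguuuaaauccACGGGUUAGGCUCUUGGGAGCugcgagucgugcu
MIR21: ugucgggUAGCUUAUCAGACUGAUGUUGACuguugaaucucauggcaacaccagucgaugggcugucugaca
MIR6781: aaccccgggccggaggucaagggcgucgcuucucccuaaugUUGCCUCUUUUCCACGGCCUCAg
MIR4637: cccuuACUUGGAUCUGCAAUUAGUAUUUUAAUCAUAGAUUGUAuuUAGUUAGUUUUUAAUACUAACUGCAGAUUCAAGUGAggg
MIR16-2: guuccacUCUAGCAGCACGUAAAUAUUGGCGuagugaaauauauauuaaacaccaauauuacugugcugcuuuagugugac
MIR16-1: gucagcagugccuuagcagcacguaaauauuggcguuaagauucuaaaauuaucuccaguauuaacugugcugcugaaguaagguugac

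On GRCh38, MIR140 lies at chr16:69933081-69933180 on the plus strand, in an intron of the ubiquitin ligase gene WWP2, and MIR197 at chr1:109598893-109598967 on the plus strand, in an exon of GNAI3, which encodes a G protein subunit. MIR30A (chr6:71403551-71403621, minus strand) lies in an intron of the long non-coding RNA gene LINC00472. MIR423 (chr17:30117079-30117172, plus strand) lies in an exon of NSRP1, a splicing gene. MIR21 (chr17:59841266-59841337, plus strand) lies in an exon of VMP1, a gene of autophagosome formation. MIR4637 (chr5:14825929-14826012, minus strand) lies in an intron of ANKH. MIR16-2 (chr3:160404745-160404825, plus strand) lies in an intron of the condensin gene SMC4.

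Of the 1486 microRNA genes of this set on the 19 chromosomes with peaks, 136 held a peak, which is 9.15% (95% Wilson interval 7.79–10.7%). The share was 7.3% over all 51473 GENCODE genes on these chromosomes, 15.9% over protein-coding genes, 5.11% over lncRNA genes and 4.94% over snoRNA genes. The share of microRNA genes lay between that of all genes and that of protein-coding genes, but the classes differ in length. The median gene was 80 bases long for microRNA genes and 27364 for protein-coding genes. Per Mb of gene sequence, introns included, there were 3420 peaks in the microRNA genes, 1342 in snoRNA genes, 5.63 in protein-coding genes and 3.56 in lncRNA genes. Each listed peak was counted here. The 414 peaks of the microRNA genes form 158 sites of touching peaks, and the 7322 peaks outside microRNA genes form 4343. The classes are therefore not compared like for like. With the chromosomes that carried no listed peak, the set had 1852 genes.

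The share of genes with a peak was higher among microRNAs with low numbers in their symbols. Numbers were given in order of discovery, so low numbers hold many of the abundant and conserved microRNAs. Of the genes numbered below 1000, 101 of 449 (22.5%, 18.9–26.6%) held a peak, against 34 of 1012 (3.36%, 2.41–4.66%) numbered 1000 or above. These intervals did not overlap. In finer classes the share was 53.9% below 200 (55 of 102 genes), 22.1% from 200 to below 500, 8.97% from 500 to below 1000, 9.70% from 1000 to below 3000, 4.30% from 3000 to below 4000, 1.23% from 4000 to below 6000 (5 of 405) and 2.79% from 6000 on. The classes next to 1000 on either side had similar shares. The number of reads behind the peaks was not analysed here, and the part of abundance in this order was not tested.

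**Figure D1:**
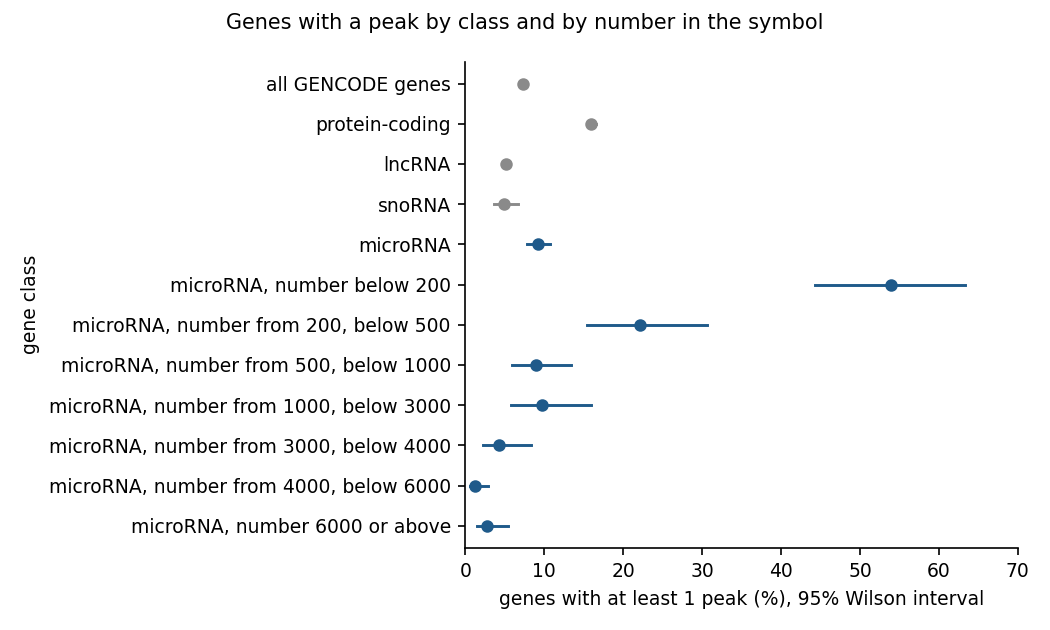
Share of genes with at least 1 peak on their own strand (x axis, percent), with 95% Wilson intervals as lines, for gene classes (grey) and for the microRNA genes of this set and their classes by symbol number (blue). MicroRNA genes with a number below 200 stand at 53.9%, and microRNA genes as a whole at 9.15%.

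The number of peaks per gene ran from 1 to 9, with a median of 3. There were 9 genes with 1 peak, 44 with 2, 51 with 3 and 32 with more. MIR140, a microRNA of cartilage development, held 9 peaks, MIR197 held 8, and MIR642A and MIR4637 held 7 each. The next were MIR10B, MIR30A, MIR425, MIR4728, MIR582 and MIR301A with 6 each. MIR4728 lies in an intron of ERBB2, the receptor tyrosine kinase gene known to be amplified in SK-OV-3 cells. The list holds peaks that differ by at most 1 base at each border, in 50 of the 136 genes. With such peaks counted once, 358 peaks remain, the median is 2, and MIR197 with 8 and MIR4637 with 7 come first, while MIR140 and MIR642A have 6 each. The order by peak number therefore depends on how such peaks are counted. Overlapping peaks that differ by more than 1 base stay counted, as in MIR197, so a peak number can count the same bases more than once. Whether the list joins several peak lists was not tested. In the full list MIR21 and MIR423 held 5, as did 7 other genes, and were placed before those because all 5 of their peaks had a p-value listed as 0. MIR10B and its paralogue MIR10A lie within the HOXD3 and HOXB3 genes of the HOX clusters. Peaks covered a median of 26.1% of the hairpin gene, from 11.5% to 88.1%, the highest value being that of MIR4637.

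Most peaks of the set lay in the tabulated mature arms. In genes with a mature sequence in the table, 375 of 412 peaks (91.0%, 87.9–93.4%) had their midpoint in a mature arm. Of the 37 others, 30 lay in genes for which the table holds a single arm (MIR10B, MIR28, MIR34C, MIR130A, MIR186, MIR425, MIR1296, MIR3168, MIR3909 and MIR4637), and 27 of these in sites that met no tabulated arm. In genes with both arms tabulated the share was 97.9% (324 of 331, 95.7–99.0%). In genes with both arms tabulated, the 5p arm held 191 of 324 mature-arm peaks (59.0%, 53.5–64.2%). This interval counts peaks that touch or overlap as if they were independent. With touching peaks joined the count was 72 of 127 (56.7%). Of all 147 sites of joined peaks that overlapped a tabulated arm, 79 lay in the 5p arm (53.7%, 45.7–61.6%). A preference for the 5p arm is thus not shown. Of 112 genes with a peak and both arms tabulated, 55 had peaks in the 5p arm alone, 38 in the 3p arm alone, 17 in both arms and 2 in neither.

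The 17 genes with peaks in both arms were MIR10A, MIR15B, MIR26B, MIR29C, MIR30A, MIR92B, MIR125B1, MIR140, MIR185, MIR193B, MIR197, MIR301A, MIR324, MIR423, MIR582, MIR642A and MIR1307, and they were named after their values were seen. The lower p-value lay in the 3p arm in 9 of them and in the 5p arm in 3, and 5 had a p-value listed as 0 in both arms. In MIR140 both arms held a p-value of 0, with 5 peaks in the 5p and 4 in the 3p arm. In MIR125B1 the lowest p-value was 4.9e-79 in the 5p arm and 1.28e-136 in the 3p arm. In MIR26B the lowest p-value was 0 in the 5p and 6.79e-27 in the 3p arm.

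Neighbouring peaks mostly abutted or overlapped, so peaks that touched on a strand were merged, and each merged stretch is called a site. The 414 peaks belonged to 158 sites with a median length of 22 bases (quartiles 20 and 23). Outside microRNA genes, 4343 sites had a median length of 17 bases (quartiles 14 and 19). Of the sites in the set, 112 (70.9%, 63.4–77.4%) were 20 to 24 bases long, against 677 (15.6%, 14.5–16.7%) of the other sites. A length of 20 to 24 bases is the range of most mature microRNAs. The longest site, at 59 bases, lay in SNORD138, which carries a small nucleolar RNA symbol although GENCODE gives it the type miRNA.

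Sites in the set were also built from more peaks. Of the 158 sites, 82 (51.9%, 44.2–59.6%) consisted of 3 or more peaks, against 120 of 4343 other sites (2.76%, 2.32–3.29%). Peaks that overlapped each other were found in 75 (47.5%) and 32 (0.737%) of these sites. In the map of hairpins, the overlapping peaks of a site form layers that share a border or end within a few bases of each other. Whether such layers come from joined peak lists was not tested.

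Site ends were then set against the ends of mature microRNAs. A mature sequence of the table was overlapped by 147 of the 158 sites, and 109 of these (74.1%, 66.5–80.5%) covered at least 90% of it. The 5′ end of the site lay within 1 base of the mature 5′ end in 115 sites (78.2%, 70.9–84.1%). The 3′ end lay within 1 base of the mature 3′ end in 101 sites (68.7%, 60.8–75.6%), so the intervals of both ends overlapped. Both ends were within 1 base in 82 sites (55.8%, 47.7–63.6%) and exact in 23 (15.6%, 10.7–22.4%), or in 6 with Start read as 1-based.

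Exact ends were also counted by strand, with Start read as 0-based, a reading that was itself chosen by the number of exact ends. Apart from the ends, the listed length equals End minus Start in all 7793 rows, as it does for a 0-based Start. The 5′ end was exact in 50 of 74 sites on the plus strand (67.6%) and in 26 of 73 on the minus strand (35.6%). With Start read as 1-based these counts are 5 and 26, so the difference between the strands turns on that reading. In a further 24 sites on the minus strand the site began 1 base before the mature sequence. Counted by the side of the genome, the right end lay 1 base beyond the mature sequence in 23 of 74 sites on the plus strand (31.1%) and 24 of 73 on the minus strand (32.9%). The left end lay 1 base beyond it in 5 and 13 sites, and in 50 and 23 with Start read as 1-based, whereas the right end does not use Start. The 5′ end is not shown to be placed more exactly than the 3′ end.

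**Figure D2:**
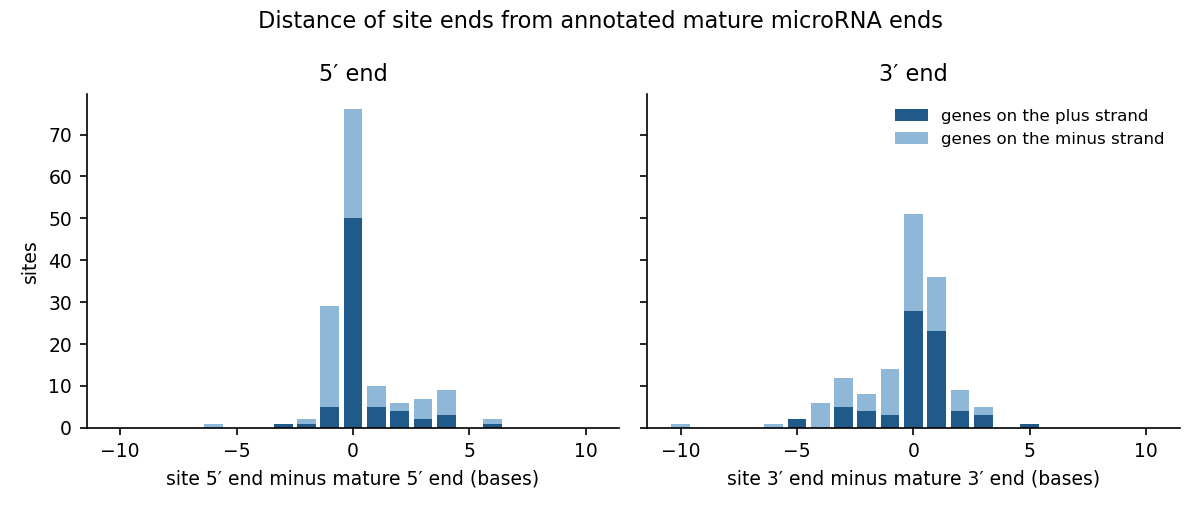
Position of site ends, with Start read as 0-based, relative to the annotated ends of the mature microRNA (x axis, bases, from −10 to 10; negative is upstream), as the number of sites (y axis) on the plus (dark) and minus strand (light). The 5′ ends of plus-strand sites gather at 0, where 50 of 74 lie, and 24 of 73 minus-strand sites begin 1 base upstream.

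Some sites departed from the annotated arm. In 9 sites the 5′ end lay 4 bases inside the mature sequence, including those of miR-10a-5p, miR-33b-5p, miR-203a-3p and miR-582-5p, whose 3′ ends were exact. The site in MIR210, which responds to hypoxia, covered 14 bases and stopped 4 bases short of the mature sequence on both sides. The site of miR-33a-5p, a regulator of cholesterol export, was 36 bases long, began 14 bases before the mature sequence and consisted of 7 peaks. Of these, 2 had their midpoint outside the gene. In MIR4637, sites of 38 and 36 bases covered most of the hairpin. The choice of these sites was made with their values known.

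In the 60 matched sites with a single peak border inside, that border lay at a median of 10.5 bases from the mature 5′ end (quartiles 9 and 13). It fell after base 8 to 15 in 46 sites (76.7%, 64.6–85.6%) and within the seed in 8 (13.3%, 6.91–24.2%). In 58 of these sites the peaks abutted there, with the same median, and in the other 2 they overlapped. The counts over the 58 were 46 and 7. No peak of the set was shorter than 5 bases, so a border between abutting peaks lies at least 5 bases from either end of its site. Avoidance of the seed was not tested.

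The p-values given by the authors were lower in microRNA genes than elsewhere. The median p-value was 3.26e-82 over the 414 peaks and 8.2e-46 over the 7322 peaks outside microRNA genes, so the median of −log10 p was 81.7 and 45.1. A p-value of 0 was listed for 104 peaks (25.1%, 21.2–29.5%), against 452 (6.17%, 5.64–6.75%) of the others. Of the peaks in the set, 293 (70.8%) were at or below 2.21e-47, the median of all listed peaks. The fold enrichment did not separate the sets. It ran from 2.00 to 3.99 in microRNA genes with a median of 3.08, and had a median of 2.99 outside them. Its Spearman correlation with log10 p over the 414 peaks, which are not independent, was −0.0927. Peaks are therefore named by their p-value alone. The test behind the p-values is not given, and the deposited false discovery rate is the same for every peak, so these p-values are descriptions only.

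**Figure D3:**
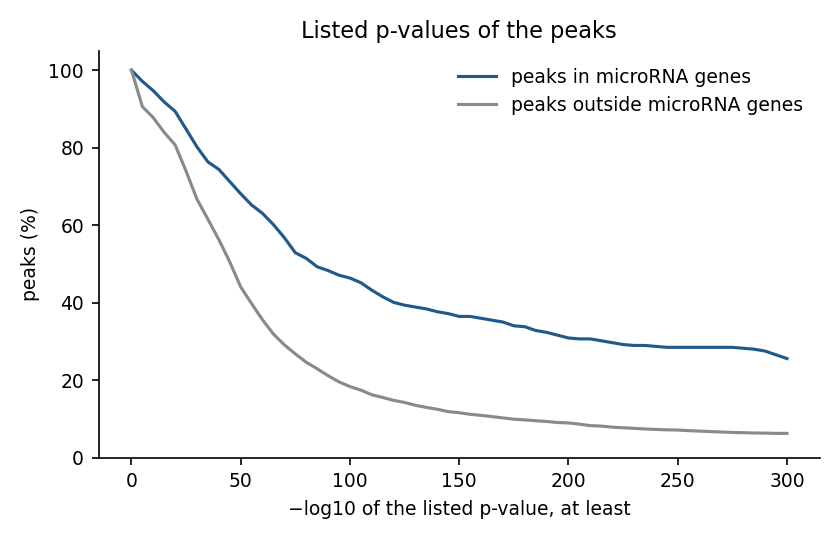
Percent of peaks (y axis) with −log10 of the listed p-value at or above the value on the x axis, for peaks in the microRNA genes of this set (blue) and peaks outside microRNA genes (grey). Peaks with a p-value listed as 0 stay above all values, and the medians are 81.7 and 45.1.

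At least 1 peak with a p-value of 0 was found in 43 of the 136 genes. MIR140, MIR10B and MIR30A had 6 such peaks each, MIR21 and MIR423 had 5, and MIR425 and MIR130A had 4. A further 7 genes tied at 3, namely MIR4637, MIR28, MIR33A, MIR10A, MIR15A, MIR15B and MIR484. MIR21 is a microRNA raised in most carcinomas, and MIR30A represses BECN1. At the other end, 8 genes had no peak with a p-value at or below 1e-10. The lowest p-value was 0.0198 in MIR615, 0.00884 in MIR627, 0.00812 in MIR379 and 0.00194 in MIR127, and these 4 were the genes without a peak at or below 0.001.

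MicroRNAs that share a primary transcript were compared in 21 clusters with 47 genes, of which 27 held a peak (57.4%, 43.3–70.5%). This stands beside 53.9% of all genes numbered below 200, 22.5% below 1000 and 16.4% of genes near another microRNA gene. All members held a peak in 9 clusters, some in 8 and none in 4. In the MIR100 cluster, MIR100 had 2 peaks with a lowest p-value of 3.04e-308 and MIR125B1 had 5 peaks. MIR99B and MIR125A, MIR143 and MIR145, MIR192 and MIR194-2, and MIR497 and MIR195 also all held peaks. In the MIR23A cluster, MIR23A and MIR27A held peaks with p-values of 0 and MIR24-2 held none. MIR29C, MIR15A, MIR30E and MIR99A held peaks while MIR29B2, MIR16-1, MIR30C1 and MIR125B2 beside them held none. Likewise, MIR132, MIR34C and MIR130B held peaks while MIR212, MIR34B and MIR301B beside them held none.

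Of the partners without a peak, MIR24-2, MIR29B2, MIR16-1, MIR30C1 and MIR125B2 have a mature arm that is identical to one from another locus. No such arm was found for MIR212, MIR34B and MIR301B. Among genes numbered below 1000, 108 of 548 mature sequences found at 1 locus had a site covering at least 50% of them (19.7%, 16.6–23.2%), against 4 of 56 found at several loci (7.14%, 2.81–17.0%). The intervals overlapped slightly. Of the 56, 16 come from the placental cluster on chromosome 19, in which no gene held a peak, and 8 from genes of the marker lists below other than the epithelial one. Without the chromosome 19 cluster the shares were 21.4% (18.1–25.2%) and 10.0% (3.96–23.1%), with a wider overlap. The 4 sequences were miR-16-5p, miR-125b-5p, miR-181b-5p and miR-194-5p. MiR-181b-5p has only 1 locus of this set on the 19 chromosomes. MIR16-2 held 4 peaks and MIR16-1 none, although the mature arm is the same in both hairpins shown above. MIR125B1 and MIR194-2 held peaks, and MIR125B2 and MIR194-1 held none. Of the 46 several-locus sequences numbered below 1000 with at least 2 loci of this set on the 19 chromosomes, these 3 had a site, each at 1 locus, and 43 had none at any locus, 16 of them from the chromosome 19 cluster.

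Arms were also compared within hairpins. In 40 genes 1 arm is found at a single locus and the other at several, and 9 of these genes had a site in an arm. The site lay in the single-locus arm alone in 5 genes (MIR138-1, MIR181A1, MIR30C2, MIR365A and MIR570), in the several-locus arm alone in 3 (MIR16-2, MIR181B1 and MIR194-2), and in both arms of MIR125B1. For MIR181A1 this was miR-181a-3p, with a lowest p-value of 5.22e-112, and for MIR30C2 it was miR-30c-2-3p, with 6.62e-180. How reads with several matches in the genome were treated is not given in the sources used here, and its part in these counts was not tested.

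Of a list of widely studied single microRNA genes, 30 lay on the 19 chromosomes and 21 of these held a peak (70%), beside 22.5% of all genes numbered below 1000 and 53.9% below 200. They include MIR21, MIR22, MIR191, MIR210, MIR375, MIR423, MIR425 and MIR484. MIR34A, a target of p53, held 1 peak with a p-value of 1.03e-09, and MIR34C held 2 with a lowest p-value of 3.79e-06. MIR26A1, MIR101-1, MIR103A1, MIR214, MIR199A2, MIR1246, MIR1248, MIR1291 and MIR3648-1 held none. In the large imprinted cluster on chromosome 14, 3 of 42 genes from MIR379 to MIR656 held a peak (7.14%, beside 9.15% over the set; MIR379, MIR299 and MIR377). With the genes from MIR770 on, it was 4 of 52, MIR127 being the further gene. In the placental cluster on chromosome 19 none of 50 did (upper limit of the interval 7.13%).

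Among the microRNAs known to act on autophagy, 4 of the 7 on the 19 chromosomes held a peak (57.1%, 25.0–84.2%). The share was 53.9% for all genes numbered below 200, 22.5% below 1000 and 9.15% over the set. These were MIR30A, MIR26B, MIR34A and MIR181A1, and MIR101-1, MIR376B and MIR376A1 held none. The list names genes, not arms. In MIR181A1 the site lay in miR-181a-3p, and miR-181a-5p held none. Of 6 microRNA genes inside a core autophagy gene, MIR6781 was the 1 that held peaks, beside 10.7% of all genes in introns of protein-coding genes. It lies at chr17:42823880-42823943 on the minus strand in BECN1, which encodes the scaffold of the kinase complex that starts autophagosomes. Its 3 peaks were in the 3p arm, with a lowest p-value of 1.41e-68. MIR21, in an exon of VMP1, lies outside that list.

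Marker lists of cell types are given as counts. Apart from the endothelial list, they hold 2 to 8 genes each on the 19 chromosomes, too few to read a share from, and MIR142, MIR155, MIR150, MIR122 and MIR128-1 had been left out by the rule. None of the 2 erythroid, 5 neuronal, 5 muscle and 8 pluripotency genes on the 19 chromosomes held a peak, and all 3 epithelial genes (MIR205, MIR203A and MIR375) did. MIR137 and MIR132, known from neurons but not on the list, held 3 peaks and 1 peak, and were named after their values were seen. Over the lists other than epithelium, 4 of 27 genes held a peak (14.8%, 5.92–32.5%), beside 9.15% over the set and 22.5% of genes numbered below 1000. MIR205 had a lowest p-value of 1.04e-300, MIR375 of 5.64e-23 and MIR203A of 5.64e-22. The last 2 are above the median of all listed peaks, 2.21e-47. MIR143 and MIR145, known from fibroblasts and smooth muscle, held peaks with p-values of 0, and MIR199A1, MIR199A2 and MIR214 from the same list held none. Of the myeloid and lymphoid list, MIR146A and MIR181C held peaks, and the endothelial MIR126 lies outside the 19 chromosomes. Presence of a peak gives no level of the microRNA.

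Position relative to other genes was described next. Of 638 genes in introns of protein-coding genes, 68 held a peak (10.7%, 8.49–13.3%). The share was 21.8% (14.1–32.2%, 17 of 78) for exons of host genes that are not protein-coding, 10.5% (17 of 162) for exons of protein-coding genes, 9.09% (20 of 220) for introns of other genes, and 3.61% (2.16–5.96%, 14 of 388) where no gene lay on the same strand. Of 22 hairpins that fill an intron within 3 bases at each end, 4 held a peak (18.2%, 7.31–38.5%). These were MIR877, MIR1224, MIR1226 and MIR1228. Hairpins of this kind are known as mirtrons and can bypass Drosha. Genes within 10 kb of another microRNA gene on their strand held a peak in 39 of 238 cases (16.4%, 12.2–21.6%), and lone genes in 97 of 1248 (7.77%, 6.41–9.39%). MIR3173, in an intron of DICER1, and MIR1306, in an exon of DGCR8, both held peaks and were named after their values were seen. MIR33A and MIR33B lie in introns of the sterol regulator genes SREBF2 and SREBF1, and both held peaks.

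Base composition was taken along the microRNA's own strand over the 3426 bases covered by the peaks. T made up 26.4% (24.9–27.9%) of them, 24.7% (23.8–25.6%) of the rest of the same hairpins and 27.6% (27.3–28.0%) of the bases of peaks outside microRNA genes. The dinucleotide CpG occurred at 0.530 of the frequency that the C and G content gives, against 0.470 in the rest of the same hairpins and 0.833 in the other peaks. Mature arms of microRNA genes without a peak stood at 0.353. Uracil was the 5′ base of 51 of 112 mature arms with a site among genes numbered below 1000 (45.5%, 36.6–54.8%) and of 142 of 553 without one (25.7%, 22.2–29.5%), each locus counted. With each sequence counted once the latter was 122 of 492 (24.8%, 21.2–28.8%). Over all symbol numbers the shares were closer, at 47.3% (69 of 146, 39.3–55.3%) and 34.8% (658 of 1893, 32.6–36.9%). Argonaute proteins are known to prefer this base.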

How the data were processed

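Peaks of 1 V5-RRN3 immunoprecipitate against 1 input library were read as deposited. The labels give the build GRCh38; the aligner, the peak caller and its thresholds are not given in the sources used here. The authors' fold enrichment is a ratio per peak, with unstated scaling. The p-value and the false discovery rate per peak were deposited by the authors, without the test. The deposited score, like the false discovery rate, is 1 for all 7793 peaks and was not used. Read depth was not analysed here.

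Peaks were placed by midpoint on GENCODE release 44. Start was read as 0-based for the bases of a peak, because more site ends then met mature ends (76 against 31 exact 5′ ends). Positions are 1-based. Peaks that touched on a strand were merged into sites. Mature arms came from RefSeq by position. CpG is observed over expected. Named genes were the 12 with the most peaks, then those with the most p-values of 0 (ties in peak number by p-values of 0, other ties all named), fixed lists, hosts, seed families and gene ends. The members and lists were chosen with earlier results of these data known. The list of core autophagy genes was written out after the data were seen. Functions were tested on planted peaks. Python 3.11.15, numpy 2.4.6, scipy 1.17.1, pysam 0.24.0 and matplotlib 3.10.9 were used.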

Additional observations from a re-analysis of the deposited data

How the results depend on the processing

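Of 74 alternative values computed for 24 results, 58 stayed close to the value in the report (within its 95% interval, or within 1.5 times for counts, medians and ratios) and 16 did not. Restricting the list to peaks with a p-value of 0 left 104 peaks in 43 genes, 87.5% of them in a mature arm, and 5 genes with peaks in both arms. Merging touching peaks first gave 157 members by midpoint, 93.6% of them in a mature arm. Both settings leave fewer peaks by construction. The share of genes numbered below 1000 with a peak was 18.7% with peaks at or below the median p-value and 16.6% with genes of all chromosomes counted. The latter cannot change the number of genes with a peak, and the share over the whole set fell to 7.34%, an alternative added after seeing the data.

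The next values come from alternatives chosen after seeing the data, and others chosen then stayed close. At exactly the same base the share was 51.7% for the 5′ end and 34.7% for the 3′ end, and within 2 bases it was 80.3% for the 3′ end. Over all symbol numbers, 7.97% of mature sequences found at 1 locus and 3.42% of those at several had a site, and 34.8% of arms without a site began with uracil. With Start read as 1-based, exact 5′ ends fell to 6.76% on the plus strand and sites exact at both ends to 4.08%. Of the alternatives set before, placement by overlap, either strand, 0-based midpoints and putting the named families back kept each value they were tried on close to the report's. No paired analysis was possible because each group had 1 library and the values come from no test. Read depth behind the peaks was not analysed here, so a gene without a peak is not shown to be unbound, and p-values of 0 have no order among themselves.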

Other observations

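The fold enrichment was spread evenly over its range. Of the 414 peaks, 23.7% lay from 2 to below 2.5, 23.4% from 2.5 to below 3, 27.1% from 3 to below 3.5 and 25.8% from 3.5 to 4, and the shares outside microRNA genes lay between 24.8% and 25.4%.

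In sites of 2 abutting peaks, the p-values of both peaks were within 10-fold of each other, or both 0, in 34 of 61 sites in the microRNA genes of this set (55.7%, 43.3–67.5%) and in 2579 of 2647 sites outside microRNA genes (97.4%, 96.8–98.0%). Pairs of peaks with the same left border and right ends 1 base apart were found in 23 of 81 plus-strand and 20 of 77 minus-strand sites. Pairs with the same right border and left ends 1 base apart were found in 5 and 6. Outside microRNA genes the first kind was found in 8 of 4343 sites and the second in none.

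At gene borders, 4 peaks had their midpoint within 3 bases inside a gene end (2 in MIR4728, 1 in MIR7976 and 1 in MIR877). A further 4 peaks had it up to 7 bases outside, at MIR625, MIR103A2 and MIR33A, and were not counted. In genes of the set, 2 peaks lay on the opposite strand alone. With either strand allowed there were 416 peaks and 140 genes with a peak.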
